A study of Mus musculus with 6 samples.

Results

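The 474 interphase-only RBPJ peaks at distal promoters are sites that were occupied in asynchronous F9 cells, that had no listed peak in mitotic F9 cells, and that lay upstream of a gene but outside its proximal promoter. They were chosen by position: the center of an asynchronous peak had no mitotic peak center within 250 bp, lay outside every annotated transcript and more than 1 kb past any transcript end, and lay more than 1 kb but at most 10 kb upstream of the closest transcript start that points away from it. They made up 474 of the 5206 asynchronous peaks, or 9.10% (exact 95% interval 8.34 to 9.92%). F9 is a line of mouse embryonal carcinoma cells. One population was asynchronous and held 95% interphase and 5% mitotic cells, and the other was arrested in mitosis with nocodazole, a drug that blocks the assembly of spindle microtubules. Both were fixed with formaldehyde and immunoprecipitated with the same rabbit antibody raised against mouse RBPJ, and the labels name no genetic change in either. Each population had 2 immunoprecipitations and 1 input. One peak list per population was examined, that of replicate 1, so a difference between the populations has no replicate check, and all intervals given here cover counting error only. The lists hold no read counts, so no depth was taken from them, and they hold no expression values by which the F9 label could be checked.

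RBPJ is the DNA-binding effector of the Notch pathway. Without a Notch signal it recruits corepressors, and with one it binds the intracellular domain of the Notch receptor and activates target genes such as those of the Hes family. CTCF is a zinc finger protein that shapes chromatin loops and insulates genes from distant elements. A factor that stays on some of its sites while chromosomes are condensed is called a mitotic bookmark, which is why occupancy in the asynchronous and the mitotic population was compared.

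The sequences below show the range of sites within the 474 peaks. All are written 5′ to 3′ on the plus strand of mm9 and cover the whole peak, and every one lies between genes. Capitals mark a match to the RBPJ consensus, TTCCCACA or TTCCCACG, or to the CTCF consensus with up to 1 mismatch, and a match on the minus strand shows as its reverse complement. Gadd45b, 1700021N21Rik, Lefty2 and Ctnnb1 show an RBPJ match, Dtx1 a CTCF match, and Traf2 and U2af1 both. Gm17422, Pou5f1 and Hes1 show strong or well known loci with neither.
1700021N21Rik, chr4:134010079-134010251: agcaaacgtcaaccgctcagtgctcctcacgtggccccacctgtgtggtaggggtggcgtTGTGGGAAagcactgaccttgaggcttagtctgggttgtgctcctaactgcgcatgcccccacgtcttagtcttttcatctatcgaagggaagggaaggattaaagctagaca
Gadd45b, chr10:80390024-80390196: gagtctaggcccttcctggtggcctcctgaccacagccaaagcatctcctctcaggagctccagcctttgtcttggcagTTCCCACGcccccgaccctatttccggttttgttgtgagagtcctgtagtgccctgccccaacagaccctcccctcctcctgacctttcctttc
Lefty2, chr1:182819130-182819302: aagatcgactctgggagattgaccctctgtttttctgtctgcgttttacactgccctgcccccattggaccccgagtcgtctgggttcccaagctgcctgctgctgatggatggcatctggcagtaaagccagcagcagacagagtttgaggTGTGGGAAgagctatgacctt
Ctnnb1, chr9:120828293-120828465: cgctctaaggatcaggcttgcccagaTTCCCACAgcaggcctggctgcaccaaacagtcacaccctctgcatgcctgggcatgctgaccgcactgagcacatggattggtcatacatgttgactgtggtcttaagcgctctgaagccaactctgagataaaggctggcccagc
Dtx1, chr5:121164412-121164584: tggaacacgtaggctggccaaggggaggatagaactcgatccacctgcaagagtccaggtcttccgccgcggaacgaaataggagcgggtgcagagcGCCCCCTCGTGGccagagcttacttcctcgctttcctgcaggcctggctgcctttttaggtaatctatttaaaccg
Traf2, chr2:25406828-25407000: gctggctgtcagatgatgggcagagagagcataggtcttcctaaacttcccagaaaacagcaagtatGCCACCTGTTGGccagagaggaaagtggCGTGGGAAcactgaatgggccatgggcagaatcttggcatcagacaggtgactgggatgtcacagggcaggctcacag
U2af1, chr17:31801816-31801988: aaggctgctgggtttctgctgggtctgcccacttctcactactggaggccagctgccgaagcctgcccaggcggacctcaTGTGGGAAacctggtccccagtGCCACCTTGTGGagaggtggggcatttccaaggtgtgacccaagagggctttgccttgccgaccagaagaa
Gm17422, chr12:88240567-88240739: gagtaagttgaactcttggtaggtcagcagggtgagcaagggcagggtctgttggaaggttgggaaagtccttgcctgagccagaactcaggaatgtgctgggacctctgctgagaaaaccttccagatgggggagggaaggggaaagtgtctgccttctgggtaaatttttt
Pou5f1, chr17:35640842-35641014: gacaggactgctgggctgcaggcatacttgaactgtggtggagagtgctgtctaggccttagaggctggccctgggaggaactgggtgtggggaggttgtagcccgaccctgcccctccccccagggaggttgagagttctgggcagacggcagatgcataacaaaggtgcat
Hes1, chr16:30060560-30060732: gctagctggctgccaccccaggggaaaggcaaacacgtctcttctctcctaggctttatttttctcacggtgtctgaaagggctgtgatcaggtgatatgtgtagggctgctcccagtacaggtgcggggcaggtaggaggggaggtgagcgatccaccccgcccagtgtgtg

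The score in the asynchronous list ranks peaks within that list, and its unit is not named there. Scores of the 474 peaks ran from 10.1 to 40.9, with a median of 11.8 and quartiles at 10.6 and 13.5. Most sat close to the lowest score listed. Of the 474, 258 (54.4%, 49.8 to 59.0%) were within 20% of it, beside 2799 of all 5206 asynchronous peaks (53.8%). A site that fell just short of being listed in the mitotic population counts as interphase-only in the same way as a site with no signal at all.

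Among the 10 peaks with the highest scores, that of Gm17422, a long noncoding RNA gene, had 32.1. Ttc7b, which encodes a subunit of a phosphatidylinositol 4-kinase complex, followed at 31.2. The noncoding transcripts 1700057H21Rik and 1700021N21Rik both had a peak with a score of 29.5. Itpk1, an inositol phosphate kinase gene, had a score of 26.6, Gadd45b, a growth arrest and DNA damage response gene, 22.0, and Golt1a and Pnrc2 21.1 each. The other 2 of the 10 are counted but not named. The 10 thus lay upstream of noncoding as well as protein-coding genes. 4 of them held an RBPJ match, those of 1700021N21Rik, Gadd45b and Pnrc2 among them, and none held a CTCF match.

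The scores were close to those of interphase-only peaks elsewhere. The median was 11.8 at distal promoters, at promoters (from 1 kb upstream to 100 bp past a transcript start), in introns and at intergenic sites (more than 10 kb upstream of the closest start). At distal promoters, 105 of 474 peaks (22.2%, 18.5 to 26.2%) were in the highest of 4 bands of equal size into which the asynchronous list was split by score, a band that by construction holds 25% of all its peaks. The share was compared with promoters, where it was 360 of 1445 (odds ratio 0.858, adjusted p = 0.441), introns with 324 of 1372 (odds ratio 0.920, adjusted p = 0.727), and intergenic sites with 222 of 1043 (odds ratio 1.05, adjusted p = 0.810), each by a two-sided Fisher's exact test. None of the 3 passed the threshold of 0.05. These p-values, and those on motifs, treat peaks of 1 list as the units and were adjusted over 11 tests.

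**Figure D1:**
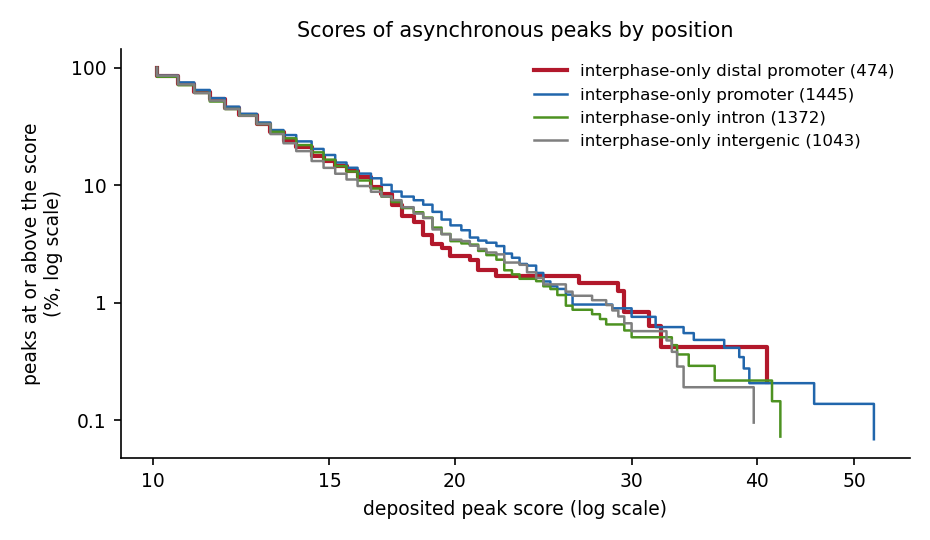
Percentage of peaks at or above each deposited score (both axes logarithmic) for the 474 interphase-only distal promoter peaks and for the interphase-only promoter, intron and intergenic peaks of the asynchronous list. The 4 curves lie close together over most of their range, and all have a median of 11.8.

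Occupancy was densest near the lower distance limit. The 474 centers lay from 1010 to 9988 bp upstream of the start, with a median of 4299.5 bp. The stretch between 1 and 2 kb held 98 peaks, or 4.25 per Mb of the sequence in that stretch (exact Poisson 95% interval 3.45 to 5.18). From 2 to 3 kb there were 65 (2.95 per Mb, 2.28 to 3.76), and each further kilobase had between 1.84 and 2.60 per Mb. Over the whole territory of 177 Mb, which is 6.91% of the genome sequence, the density was 2.69 per Mb (2.45 to 2.94), beside 2.04 per Mb for all asynchronous peaks over the genome. The 2.69 counts interphase-only peaks alone, while the 2.04 counts every asynchronous peak, of which 91.8% had no mitotic center within 250 bp. Because the rule sets the distance limits, these densities are a description of the peaks and not a test.

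**Figure D2:**
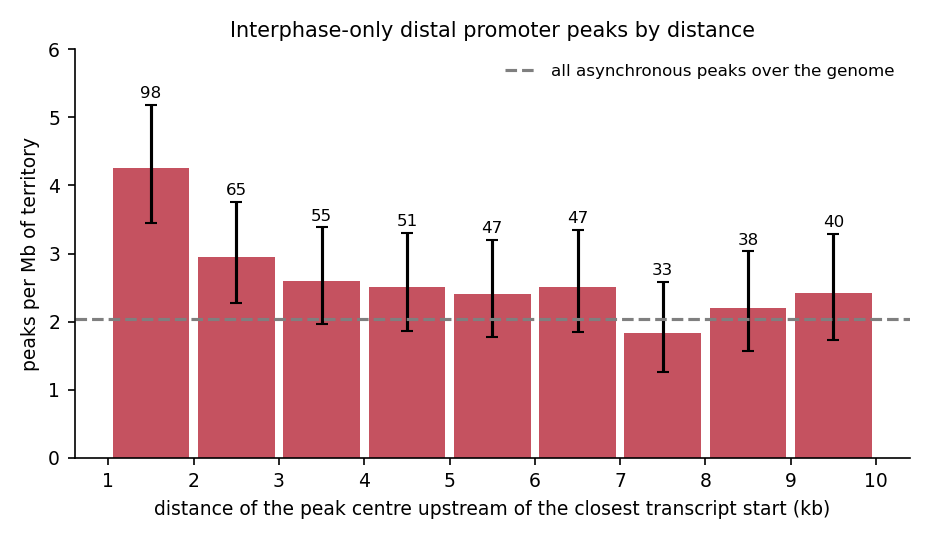
Density of interphase-only distal promoter peaks (peaks per Mb of sequence that meets the positional rule) in each kilobase upstream of the closest transcript start, with exact Poisson 95% intervals; the number of peaks is printed above each bar. The bar from 1 to 2 kb stands at 4.25 per Mb and the others between 1.84 and 2.95. The dashed line marks 2.04 per Mb for all asynchronous peaks over the genome, with or without a mitotic center within 250 bp.

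The peaks nearest to each limit of the rule were as follows. At 250 bp from a mitotic center, the peaks of Kcnc1 (257 bp), Zfp362 (271 bp) and Zfp710 (284 bp) were just inside, and those of Celsr3 (247 bp), Trappc9 (246 bp) and Ctdsp2 (215 bp) were just outside. At 1 kb from the start, Icam1 (1010 bp), Pkdcc (1011 bp) and Prdm14 (1020 bp) were inside, while Lrrc8d (997 bp) and Lamb2 (996 bp) were outside. At 10 kb, Derl3 (9988 bp), Nes (9974 bp) and Ctnnb1 (9955 bp) were inside, while Pltp (10054 bp), Olfr19 (10186 bp) and Fnbp1l (10208 bp) were outside.

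The distance from the 474 peaks to the closest mitotic center varied widely. The rule left out peaks with a mitotic center within 250 bp, and distances of other asynchronous peaks were not set beside these. The median distance was 68772 bp, with quartiles at 18268 and 230434 bp, and 266 of the 474 peaks (56.1%) had a mitotic center within 100 kb. Within 500 bp, 9 had a mitotic center, and 20 (4.22%, 2.60 to 6.44%) within 1 kb. The 9 close cases lay upstream of 4933403G14Rik, Tmem125, Dapp1, Hsd11b2, Kcnc1, Slc29a2, Hist1h2ag, Zfp362 and Zfp710, listed here after their values were seen. Of all asynchronous distal promoter peaks, 474 of 511 (92.8%, 90.2 to 94.9%) were interphase-only, beside 91.8% of all asynchronous peaks. The share that defines the peaks was thus close to that of the list as a whole. It rests on listed centers alone and compares no read enrichment, so it is not a share of sites lost in mitosis. The paper sorted sites by their difference in enrichment, and by that measure it counted most asynchronous sites as common to both populations. The other 37 distal promoter peaks had a mitotic center within 250 bp. Their median score was 12.7, 16 of them were in the highest score band (43.2%, 27.1 to 60.5%), 3 held an RBPJ match (8.11%) and 11 a CTCF match (29.7%, 15.9 to 47.0%). The share in the highest score band was thus above the 22.2% (18.5 to 26.2%) of the 474 peaks, with intervals that do not overlap, while the intervals of the motif shares overlap. These differences were not tested.

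An RBPJ match was found in few of the 474 peaks, but more often than in the sequence around them. It was present in 36 peaks (7.59%, 5.38 to 10.4%), beside 9.09% of all asynchronous peaks. Windows of the same width placed 2 kb to either side held it in 20 of 948 cases (2.11%). These side windows were not matched to the peaks in base composition (median GC content 47.4% against 55.5%), here and for the other motifs. The 36 peaks held 1 match each. In 17 the match ended in A and in 19 in G (52.8%, 35.5 to 69.6%), and in the side windows 5 of 20 matches ended in G. The median distance of the match from the peak center was 26 bp, and 18 of 36 matches (exact 95% interval 32.9 to 67.1%) were within 25 bp, where an even spread over the peak would put 30.1%. Relative to the downstream gene, 20 of 36 pointed the same way.

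The 10 strongest peaks with an RBPJ match include 2 printed whole, for 1700021N21Rik and Gadd45b. Another 7 are given here as windows of 60 bases of mm9 around the match, which is in capitals and always in the orientation TTCCCAC, with the strand named.
Pnrc2, chr4:135432730-135432789, minus strand: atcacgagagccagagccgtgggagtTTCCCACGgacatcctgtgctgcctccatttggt
Gm13215, chr4:131711366-131711425, minus strand: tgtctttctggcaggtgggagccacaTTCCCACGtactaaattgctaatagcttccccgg
Galk1, chr11:115879622-115879681, plus strand: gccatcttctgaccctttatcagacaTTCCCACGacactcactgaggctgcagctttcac
Derl3, chr10:75346083-75346142, plus strand: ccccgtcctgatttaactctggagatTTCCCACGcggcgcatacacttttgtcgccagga
Hs6st1, chr1:36118244-36118303, plus strand: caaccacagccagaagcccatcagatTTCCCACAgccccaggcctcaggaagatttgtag
Hmox1, chr8:77607755-77607814, plus strand: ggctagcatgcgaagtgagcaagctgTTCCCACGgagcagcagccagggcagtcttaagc
Ldhb, chr6:142460252-142460311, plus strand: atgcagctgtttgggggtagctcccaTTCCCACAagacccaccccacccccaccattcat
Galk1, the galactokinase gene, had a score of 18.6 at 5575 bp. Derl3, which acts in the degradation of misfolded endoplasmic reticulum proteins, had 18.2 at 9988 bp. Hs6st1, a heparan sulfate sulfotransferase gene, and Hmox1, the inducible heme oxygenase gene, had 17.7 at 6988 and 9728 bp. Ldhb, a lactate dehydrogenase subunit gene, had 17.3 at 3755 bp, and it also had an asynchronous peak 159 bp past its start. The 7 matches differ in the bases on both sides of the consensus, and 5 of the 7 end in G. Further down the list, matches were found upstream of Lefty2 (16.9), Gpsm1 (16.5), Ino80 (15.2), Kdm5b (13.5), Ctnnb1 (11.8) and Cdk6 (10.1), named after their values were seen or from the gene lists below.

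Against other positions, the share with an RBPJ match did not differ beyond the threshold. It was 7.06% at interphase-only promoters (102 of 1445, odds ratio 1.08, 95% interval 0.729 to 1.61, adjusted p = 0.810), 9.91% in introns (136 of 1372, odds ratio 0.747, 0.509 to 1.10, adjusted p = 0.333) and 9.97% at intergenic sites (104 of 1043, odds ratio 0.742, 0.50 to 1.10, adjusted p = 0.333), each compared by Fisher's exact test. The intervals leave room for a difference of some size in either direction. At mitotic-only distal promoters, the counterpart class that had a mitotic but no asynchronous peak, the share was 3.56% (8 of 225). The odds ratio was 2.23 (1.02 to 4.88), with Fisher's exact p = 0.045 before and p = 0.165 after adjustment. With the shorter core TTCCCA the share was 38.0% against 22.2% (odds ratio 2.14, adjusted exact p = 0.000182), and against promoters 38.0% against 31.1% (odds ratio 1.35, adjusted p = 0.0187). The mitotic peaks are 203 bp wide and the asynchronous ones 173 bp, so the mitotic peaks had the longer sequence to hold a match.

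A CTCF match was the more frequent of the 2. It was present in 103 of the 474 peaks (21.7%, 18.1 to 25.7%), beside 18% of all asynchronous peaks and 29 of 948 side windows (3.06%). In 29 of the 103 the match had no mismatch and in 74 it had 1. The match lay within 25 bp of the peak center in 58 of 103 (56.3%, 46.2 to 66.1%), where an even spread would put 30.9%. Toward the gene it had no fixed orientation, with 48 of 103 pointing the same way (46.6%, 36.7 to 56.7%). Overlapping matches included, 8 peaks (1.69%) held 2 or more, those of Brf1, Ptp4a3, Ppp1r1b, Nfam1, Gm15175, Kcnc1, Znfx1 and Dlx3, listed here after their values were seen.

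The 5 strongest peaks with a CTCF match lay upstream of 4632415K11Rik (19.8), Gps1 (18.2), Dcaf11 (17.3), Arl4c (16.9) and Uggt1 (15.6). Gps1 encodes a COP9 signalosome subunit, Dcaf11 a substrate receptor of a ubiquitin ligase, Arl4c a small GTPase and Uggt1 a folding sensor of the endoplasmic reticulum. They are shown as windows of 60 bases around the match in capitals, in the orientation of the consensus.
4632415K11Rik, chr8:122303384-122303443, minus strand: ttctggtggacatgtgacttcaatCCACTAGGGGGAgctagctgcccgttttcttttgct
Gps1, chr11:120637568-120637627, minus strand: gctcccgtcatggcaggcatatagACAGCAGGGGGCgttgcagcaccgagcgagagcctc
Dcaf11, chr14:56175972-56176031, minus strand: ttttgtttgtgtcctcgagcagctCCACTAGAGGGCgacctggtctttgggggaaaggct
Arl4c, chr1:90602573-90602632, minus strand: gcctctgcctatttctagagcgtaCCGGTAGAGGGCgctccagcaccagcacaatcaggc
Uggt1, chr1:36308494-36308553, plus strand: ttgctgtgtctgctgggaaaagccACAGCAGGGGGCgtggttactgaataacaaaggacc
The peak of Dcaf11 has a match without a mismatch, 6.5 bp from the peak center, and the other 4 have 1 mismatch.

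CTCF matches marked the distal peaks off from the proximal promoter. At interphase-only promoters the share was 5.74% (83 of 1445), and the odds ratio of distal promoters against promoters was 4.56 (3.34 to 6.22, adjusted p = 4.15e-20, two-sided Fisher's exact test). Introns with 23.6% (odds ratio 0.898, 0.698 to 1.15, adjusted p = 0.648) and intergenic sites with 22.1% (odds ratio 0.976, 0.750 to 1.27, adjusted p = 0.894) did not differ from the distal promoters beyond the threshold by the same exact test. At mitotic-only distal promoters the share was 10.7% (24 of 225), and the odds ratio was 2.33 (1.44 to 3.74, adjusted p = 0.00182, Fisher's exact test). The second call was lost among peaks at or above the median score of their list (17.7% against 8.47%, odds ratio 2.33, adjusted p = 0.0891) and with no mismatch allowed (6.75% against 2.67%, odds ratio 2.64, adjusted p = 0.165), by the same exact test. This comparison sets peaks of 1 list against peaks of another, and the scores and widths of the lists differ.

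**Figure D3:**
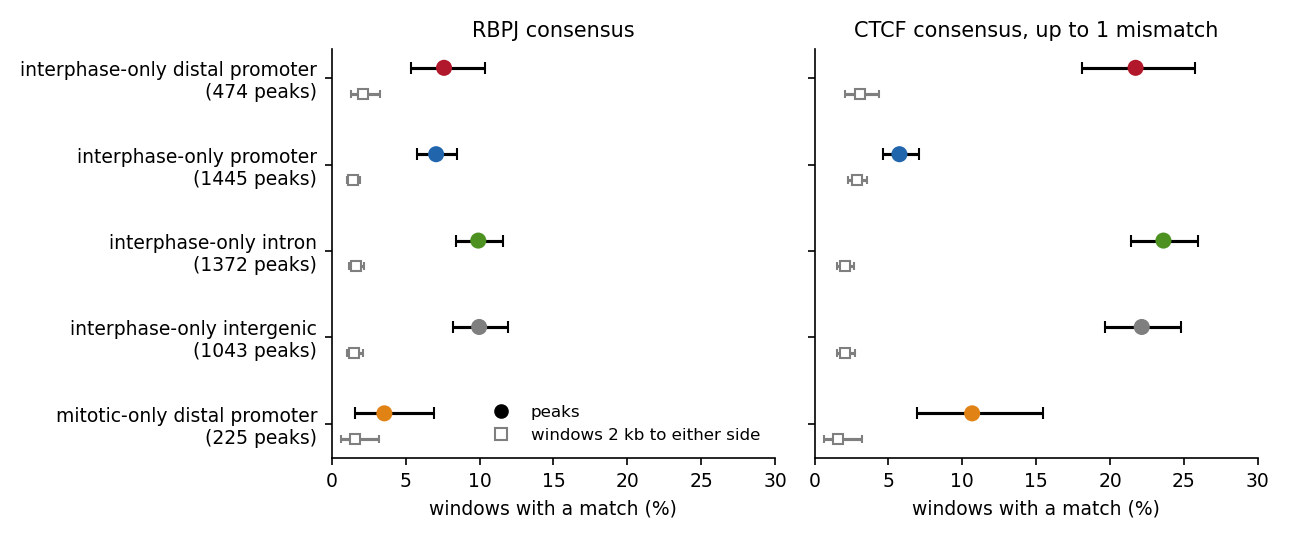
Percentage of peaks that hold an RBPJ consensus (left) or a CTCF consensus with up to 1 mismatch (right) in 5 classes of peaks, with exact 95% intervals (filled circles), and the same for windows 2 kb to either side (open squares). For RBPJ the distal promoter peaks (7.59%) sit among the other interphase-only classes, and for CTCF (21.7%) they sit with introns and intergenic sites, above promoters (5.74%) and mitotic-only distal promoters (10.7%).

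Both motifs were found together in 6 peaks (1.27%), upstream of Traf2, Nfam1, E130012A19Rik, Fam65c, Rac2 and U2af1. CTCF matches were present in 6 of the 36 peaks with an RBPJ match (16.7%, 6.37 to 32.8%) and in 97 of the 438 without one (22.1%, 18.3 to 26.3%). The intervals overlap. In all, 133 of 474 peaks (28.1%, 24.1 to 32.3%) held at least 1 of the motifs, and 341 held neither.

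**Figure D4:**
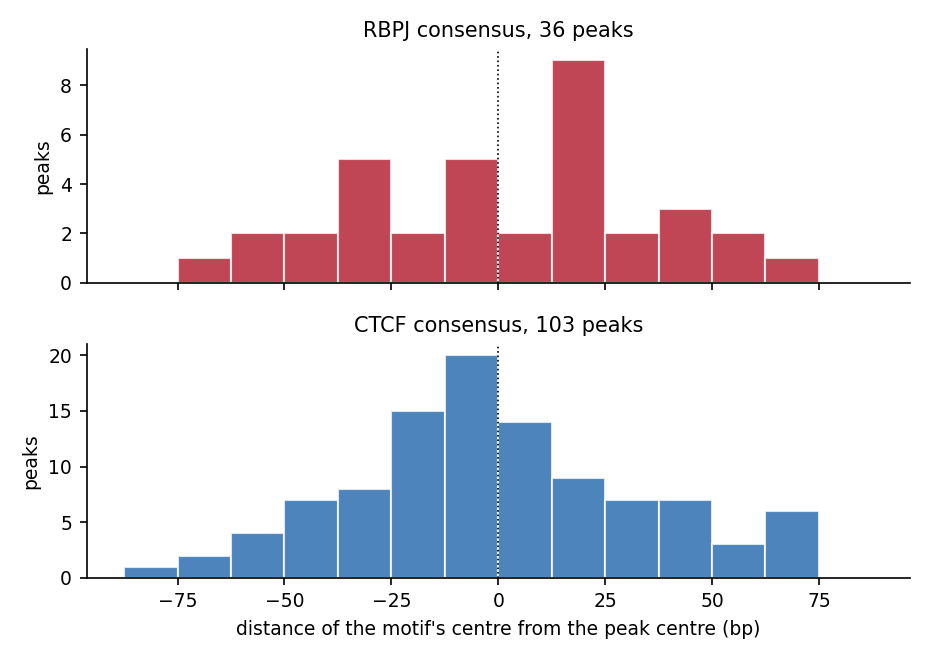
Distance of the center of the match from the center of the peak, in bp along the plus strand, for the 36 distal promoter peaks with an RBPJ match (top) and the 103 with a CTCF match (bottom), as numbers of peaks; where a peak holds several matches the closest is drawn. Within 25 bp of the center lie 18 of 36 matches for RBPJ and 58 of 103 for CTCF.

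The share with an RBPJ match fell with the score, as it did over the whole list, while the share with a CTCF match was lowest in the highest score band and had no order in the others. An RBPJ match was present in 13.3% of the distal promoter peaks in the highest score band (14 of 105, 7.49 to 21.4%), in 7.81% and 6.61% in the middle bands, and in 3.33% in the lowest (4 of 120, 0.916 to 8.31%). Over all asynchronous peaks the shares fell from 15.8% to 5.38%. A CTCF match was present in 12.4% of the highest band (13 of 105, 6.76 to 20.2%), and in 24.2%, 21.5% and 27.5% of the following bands. Over all asynchronous peaks, the CTCF shares were 16.4%, 19.0%, 18.4% and 18.4%. These shares were not tested. With distance from the start there was no such order. RBPJ matches were in 18 of 269 peaks up to 5 kb (6.69%, 4.01 to 10.4%) and 18 of 205 beyond (8.78%, 5.29 to 13.5%), and CTCF matches in 57 (21.2%, 16.5 to 26.6%) and 46 (22.4%, 16.9 to 28.8%).

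**Figure D5:**
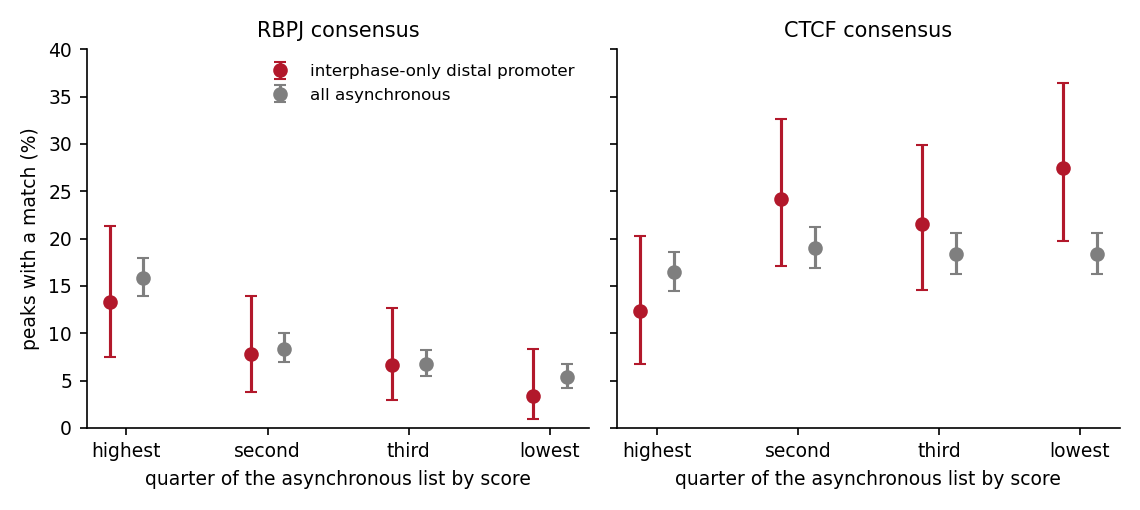
Percentage of peaks with an RBPJ (left) or CTCF (right) match in each of the 4 score bands of the asynchronous list, for the interphase-only distal promoter peaks (red) and all asynchronous peaks (grey), with exact 95% intervals. In the distal promoter peaks the RBPJ share falls from 13.3% to 3.33% from the highest to the lowest band, and the CTCF share is lowest, at 12.4%, in the highest band.

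The base composition also differed from the surroundings. The median GC content of the 474 peaks was 55.5%, and that of the side windows was 47.4%. They held a median of 4 CpG dinucleotides, beside 2 in the side windows, 3 in intron peaks, 4 in intergenic peaks and 9 in promoter peaks. The median CpG count of the distal promoter peaks was thus nearer to that of introns and intergenic sites than to that of proximal promoters, which was not tested.

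The closest downstream start belonged to a protein-coding gene for 379 of the 474 peaks (80.0%). The rest lay upstream of 23 pseudogenes, 21 processed transcripts, 12 long intergenic noncoding RNAs, 10 miscellaneous RNAs, 10 microRNAs, 9 small nuclear RNAs, 8 small nucleolar RNAs and 2 ribosomal RNAs, counted as peaks. The microRNA genes include Mir181c (score 16.5 at 1976 bp), Mir137 (16.0 at 2285 bp) and Mir130a (13.9 at 1346 bp), picked here as the 3 highest of the class. In all, 459 genes had such a peak, of which 15 had 2 and none had more. The 368 protein-coding genes were 1.64% of the 22380 annotated. Of these 368, 37 (10.1%, 7.18 to 13.6%) also had an asynchronous peak at a promoter, beside 7.5% of all protein-coding genes, and 18 (4.89%, 2.92 to 7.62%) a mitotic peak at a promoter, beside 2.95%. A further distal promoter peak in the mitotic list was upstream of 27 of the 368 (7.34%, 4.89 to 10.5%). The share of all protein-coding genes with such a mitotic peak was not counted, so the 7.34% has no background beside it. A transcript start upstream of a peak says where it is, not which gene it acts on.

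Genes of the Notch pathway were covered by a list of 70 genes, of which 4 had an interphase-only distal promoter peak (5.71%, beside 1.64% of all protein-coding genes). Hes1, the classic transcriptional target of Notch signaling, had the strongest, with a score of 16.5 at 3824 bp upstream. The printed sequence of that peak holds neither consensus. The Hes1 locus had 3 more asynchronous peaks within 12 kb. The strongest had a score of 26.6, lay 953 bp past the start, held an RBPJ match and had a mitotic partner, whose center was 930 bp past the start. Another was 1190 bp upstream with a score of 16.5 and also had a mitotic partner, with its center 1300 bp upstream. The last was 2003 bp past the start, had a score of 15.2 and no mitotic partner, and held an RBPJ match. Of the 4 asynchronous peaks at Hes1, 2 thus had a mitotic counterpart, the strongest included, and 2 did not. Dtx1, a Deltex ubiquitin ligase gene, had a score of 13.5 at 2562 bp, with the CTCF match printed above. Hes3, another Hes repressor gene, had 11.4 at 2776 bp, also with a CTCF match. Its locus had a stronger asynchronous peak 5980 bp past the start (score 17.7), with both an RBPJ and a CTCF match and no mitotic partner. Neurl1a, which encodes a ubiquitin ligase for Notch ligands, had 11.4 at 2980 bp. None of the 4 interphase-only distal promoter peaks of this list held an RBPJ match, beside 7.59% of all 474 peaks, and 4 peaks are too few to set against that share.

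Among the 16 lists, that of pluripotency genes had the highest share. Of 44 genes, 9 had an interphase-only distal promoter peak (20.5%, beside 1.64% of all protein-coding genes). L1td1, an RNA-binding protein gene of pluripotent cells, had a score of 17.3 at 4104 bp. Lefty2, a secreted inhibitor of Nodal, had 16.9 at 4023 bp with an RBPJ match. Tdgf1, the Nodal coreceptor Cripto, had 16.9 at 2131 bp. Pou5f1, which encodes the pluripotency factor OCT4, had 16.5 at 2054 bp. Sall1, Fgf4, Dppa5a and Prdm14, named after their values were seen, had scores from 11.8 to 13.9. Of the 9 starts, only that of Fgf4 had mitotic peaks within 12 kb, 2 in number. In the same list of 44, 9 genes also had an asynchronous promoter peak (20.5%, beside 7.5% of all protein-coding genes). The lists were drawn up with earlier results on these data known, so the counts describe the lists and nothing was tested.

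Other signaling lists had shares from 0 to 10.5%, also beside 1.64% of all protein-coding genes. Of 67 Wnt pathway genes, 3 had such a peak (4.48%). Lef1, a nuclear partner of beta-catenin, had a score of 17.7 at 8133 bp, Ctnnb1, which encodes beta-catenin, 11.8 at 9955 bp with an RBPJ match, and the coreceptor gene Lrp5 11.4 at 1497 bp. Of 62 genes of TGF-beta and BMP signaling, 4 had one (6.45%), with Bmp4, a BMP ligand, at 13.9 and 9507 bp. Id1, a BMP target, had a pair of peaks with scores of 12.7 and 12.2 at 9175 and 7808 bp. Gdf15 had 11.8 at 6360 bp. Of 38 FGF pathway genes, 4 had one (10.5%), namely the inhibitor gene Spred2 (16.0), the ligand genes Fgf18 (14.4) and Fgf4 (12.7), and the adaptor gene Frs2 (10.6). None of the 14 Hedgehog genes and none of the 19 retinoic acid pathway genes had one.

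Among 262 developmental transcription factor genes, 11 had an interphase-only distal promoter peak (4.20%). The highest scoring were Pou5f1 (16.5), Gbx1 (14.8, with a CTCF match), Klf8 (13.5) and Pou2f2 (11.8). None of the 11 peaks held an RBPJ match and 3 held a CTCF match, beside 7.59% and 21.7% of all 474 peaks. With so few peaks, these counts are no result about the list. Of 74 cell junction genes, 3 had one (4.05%). Cdh1, which encodes E-cadherin, had 17.3 at 3501 bp, the connexin gene Gjb5 had 15.2 at 7529 bp, and Pvrl1, a nectin gene, had a pair of peaks at 13.5. Of 28 polycomb and chromatin modifier genes, 2 had one, Ezh1 (16.5) and Kdm5b (13.5, with an RBPJ match). Of 27 genes of MHC class I presentation, the neighbors H2-Q6 (13.5) and H2-Q7 (10.6) had one each, both with a CTCF match. The H2-Q genes are close copies of each other, so reads at these 2 sites may be placed with less certainty.

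In 3 housekeeping lists the share of genes with a distal promoter peak was at or below the 1.64% of all protein-coding genes, with 1 gene each, and the share with an asynchronous promoter peak was above the 7.5% of all protein-coding genes. At 1 gene a list, the distal shares are close to the background and no result about these lists. Of 83 cytosolic ribosomal protein genes, 21 had an asynchronous promoter peak (25.3%) and 1, Rpl29, an interphase-only distal promoter peak (1.2%, score 15.6, with a CTCF match). Of 172 nuclear genes for mitochondrial machinery, 37 had a promoter peak (21.5%) and only Cox8b a distal one (0.581%, score 10.1). Of 91 translation factor genes, 20 had a promoter peak (22.0%) and only Eef2k a distal one (1.10%, score 16.5). Cell cycle and mitosis genes had 18 promoter peaks among 94 genes (19.1%) and 4 distal ones (4.26%), at Aurkb (13.1), E2f2 (12.2, with a CTCF match), Cdk6 (10.1, with an RBPJ match) and Cenpm (10.1). None of the 14 CTCF and cohesin genes had a distal one. In the pluripotency list, by contrast, equal numbers of genes had the 2 kinds (9 each). The same held for developmental transcription factors (11 each) and polycomb and chromatin modifiers (2 each). More genes had a distal peak than a promoter peak in the TGF-beta and BMP (4 against 2), FGF (4 against 3) and cell junction lists (3 against 1). Fewer did in the Notch (4 against 12), Wnt (3 against 5) and MHC class I lists (2 against 5).

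At several named genes the mitotic list held a peak elsewhere at the locus. Gadd45b had the interphase-only peak at 2726 bp with the RBPJ match printed above, and a mitotic peak 57 bp past its start, with no asynchronous peak there. At Gm17422, mitotic peaks lay 4955 bp upstream and 7043 bp past the start. At Cdh1 they lay 6381 bp upstream and 5143 bp past the start. At Gps1, a mitotic peak lay 1008 bp upstream, and at Gdf15 1798 bp past the start. None of these was within 250 bp of an asynchronous center. At 1700021N21Rik, Pou5f1, Lefty2, Lef1 and Ctnnb1, no mitotic peak was listed within 12 kb of the start. The Ctnnb1 peak itself, at 9955 bp upstream, had a mitotic center 3982 bp away on the side facing away from the gene.

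The 474 peaks were spread over 20 chromosomes. Chromosome 2 held the most, 39, and chromosome 16 the fewest, 7. Chromosome 8 stood out in both lists, with 518 asynchronous and 527 mitotic peaks, but it held 33 of the distal promoter peaks, which is 6.37% of its asynchronous peaks, beside 9.10% over all chromosomes. This share was lowest on chromosome 16 (5.34%) and highest on chromosome X (13.3%), so that of chromosome 8 was not the lowest. Per 100 Mb, the counts ran from 7.12 on chromosome 16 to 31.2 on chromosome 11. Another asynchronous center lay within 1 kb of 16 of the peaks (3.38%) and within 10 kb of 125 (26.4%).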

How the data were processed

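The authors immunoprecipitated RBPJ from asynchronous and nocodazole-arrested F9 cells, sequenced the DNA with an input, aligned reads and called peaks; Bowtie 0.12.7 and HOMER are named in the submitters' processing notes. The deposited lists give peaks in mm9 with a score set by the authors, whose unit is not named. Peaks were 173 bp wide in the asynchronous list and 203 bp in the mitotic one, and 5206 and 3227 in number. Replicate 2, the inputs and reads were not used here.

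Peak centers were placed against 95495 GENCODE vM1 transcripts of NCBIM37, the mm9 build, and sequences were read from that genome. The letters TTCCCACA or TTCCCACG and the CTCF consensus of 12 bases with up to 1 mismatch were searched on both strands. The 4 score bands broke ties in file order. Shares carry exact Clopper-Pearson 95% intervals. Classes were compared by two-sided Fisher's exact tests with Woolf intervals for odds ratios and Benjamini-Hochberg adjustment over 11 tests; peaks are the units, not replicates, so the p-values do not measure variation between experiments. Density used every 200th base. Python 3.11.15, pandas 2.3.3, numpy 2.4.6, scipy 1.17.1, pysam 0.24.0 and matplotlib 3.10.9 were used, and the search and tests were checked on simulated data.

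The peaks, gene lists and motifs were chosen with earlier results of these data known. Genes were named if among the 10 highest scores, the 10 highest with an RBPJ match, the 5 highest with a CTCF match, the 4 highest of a gene list, or the 3 on each side of a limit; some further genes were named after their values were seen. Peaks on chromosome 18, 12 in number, and a few other loci were counted but are not reported here by name. Other settings tried changed the partner window, transcript set, upstream limit, score minimum, sex chromosomes, class by interval, and motif.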

Additional observations from a re-analysis of the deposited data

How the results depend on the processing

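No paired analysis was possible because only replicate 1 of each population has a peak list. Leaving out a replicate could not be done for the same reason. Of 104 tests recomputed under other settings, 93 kept their direction and their side of the threshold, and of 41 values without a test, 31 stayed within their interval or, for the number of peaks, within 1.5 times. The excess of CTCF matches over promoters passed in all 10 settings tried (odds ratios 2.52 to 6.93). The excess over mitotic-only distal promoters ranged from 2.20 to 3.46, and its adjusted p missed the threshold with scores at or above the list median (2.33) and with no mismatch (2.64), where fewer peaks or matches remain. The shorter core TTCCCA turned 2 comparisons of RBPJ matches into calls, against promoters (odds ratio 1.35) and against mitotic-only distal promoters (2.14), and put intergenic sites at 1.05. Odds ratios that crossed 1 without a call were RBPJ against promoters with an upstream limit of 5 kb (0.944), CTCF against intergenic sites with protein-coding transcripts only (1.06) and with up to 2 mismatches (1.10), CTCF against introns with up to 2 mismatches (1.06), and the share in the highest score band against introns with protein-coding transcripts only (1.02) and by the list median (1.08). The limit of 5 kb left 269 peaks with a median distance of 2627 bp. The list median left 254 peaks with a median score of 13.5 and 17.7% with a CTCF match. The RBPJ share was 38.0% with TTCCCA and 12.4% with TTCCCAC. The CTCF share was 6.75% with no mismatch, 43.9% with up to 2 and 17.5% in the central 100 bp. These shifts follow from what each setting searches or keeps. The lists give no reads, so how near an interphase-only peak came to being listed in mitosis was not tested.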

Other observations

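Other motifs were searched in the 474 interphase-only distal promoter peaks and described without a test. The Esrrb half-site CAAGGTCA, bound by an orphan nuclear receptor of pluripotent cells, was in 21 peaks (4.43%, 2.76 to 6.69%), beside 0.949% of the side windows, 3.42% of all asynchronous peaks and 1.59% of interphase-only promoter peaks. Intron peaks had 5.03% and intergenic peaks 3.64%, both within that interval. The AP-1 site, TGACTCA or TGAGTCA, was in 23 (4.85%, 3.10 to 7.19%), beside 2.64% of the side windows and 1.94% of promoter peaks. It was in 4.52% of intron peaks, 3.84% of intergenic peaks and 3.61% of all asynchronous peaks, all within that interval. The E box CACGTG, bound by Myc and Usf proteins, was in 40 (8.44%, 6.10 to 11.3%), beside 3.59% of the side windows and 10.8% of promoter peaks. Its share was 7.43% in intron peaks, 7.77% in intergenic peaks and 8.72% over all asynchronous peaks. The N box CACNAG, the target of Hes repressors, was in 192 (40.5%), beside 28.8% of the side windows and 37.9% of all asynchronous peaks. Its letters can lie within the CTCF consensus.

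Motifs of housekeeping promoters had lower shares than at promoter peaks, but for the NRF1 and YY1 elements the intervals overlap. The ETS site CCGGAAG was in 14 distal promoter peaks (2.95%, 1.62 to 4.91%), beside 12.3% of promoter peaks and 0.633% of the side windows. Introns had 2.55% and intergenic sites 2.68%. The GC box GGGCGGG was in 34 (7.17%), beside 11.8% of promoter peaks and 2.95% of the side windows. Introns had 4.45%, intergenic sites 5.08% and all asynchronous peaks 7.11%. The ZNF143 element CTACANTTC was in 3 (0.633%), beside 4.01% of promoter peaks. The NRF1 element GCGCATGCG was in 5 (1.05%, 0.343 to 2.44%), beside 1.87% (1.23 to 2.71%). The YY1 element AAGATGG was in 16 (3.38%, 1.94 to 5.42%), beside 5.47% (4.35 to 6.77%). Outside this group, the octamer ATGCAAAT of POU factors was in 3 (0.633%), beside 1.05% of the side windows and 0.761% of promoter peaks. The Sox and Tcf element ACAAAG was in 65 (13.7%), beside 13.5% of the side windows and 10.3% of promoter peaks. The Klf element CCCCACCC was in 20 (4.22%, 2.60 to 6.44%), beside 3.06% of the side windows and 4.64% of promoter peaks. It was more frequent in intron peaks (8.02%, 6.64 to 9.58%), intergenic peaks (7.38%, 5.87 to 9.14%) and all asynchronous peaks (6.13%). For this element the interval at distal promoters does not overlap that of introns, and the difference was not tested.

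The last base of the RBPJ match was also counted by position. It was G in 19 of 36 matches at distal promoters (52.8%, 35.5 to 69.6%) and in 55 of 103 at interphase-only promoters (53.4%, 43.3 to 63.3%). In introns it was G in 38.6% of 140 (30.5 to 47.2%) and at intergenic sites in 36.4% of 107 (27.4 to 46.3%). In mitotic-only distal promoter peaks it was G in 1 of 9 matches (0.281 to 48.2%). The interval at distal promoters overlaps each of the others. The differences were not tested.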
